A study of Mus musculus with 8 samples.

Results

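Chemokines are small secreted proteins, named by the spacing of their first cysteines (CXC, CC, XC and CX3C), that guide moving cells along a gradient. They act through receptors coupled to inhibitory G proteins, mostly on leukocytes, and in skin they are made by keratinocytes, fibroblasts, endothelium and resident immune cells. The genes described here are the 57 of 24421 in the expression table whose symbol is a family prefix (Cxcl, Ccl, Cx3cl, Xcl, Cxcr, Ccr, Cx3cr or Xcr) followed by a number and at most 1 letter, of which 39 are ligands and 18 are receptors. Measured values played no part in that choice. Chemokines with other symbols, such as Pf4 and Ppbp, and the atypical receptors of the Ackr series are outside the rule and are treated with the pathway genes.

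RNA was sequenced from 2 sorted populations of the back skin of 4 C57BL/6J mice that carried the ROSA mTmG reporter and Tyr:CreERT2. Every animal was given tamoxifen on 10 days from day 21 of life, had its back shaved and depilated on day 50, and gave skin on day 54. In between, 2 mice (numbers 3 and 4) had UVB at 150 mJ/cm2 over 3 days and 2 (numbers 1 and 2) had normal light as a mock. EGFP+ cells are those in which a Cre driven by tyrosinase sequence had recombined the reporter, labelled melanocytes, and tdTomato+ cells are all that were not recombined, so the 4 groups (each population with and without UV) hold 2 libraries each, and both populations come from the same mice. The tdTomato+ fraction is a mixture of keratinocytes, dermal cells, immune cells and any melanocyte that escaped recombination. No group lacks tamoxifen, depilation or the reporter.

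The libraries held 11186363 to 16711981 reads. All 6 melanocyte markers checked (Dct, Tyrp1, Pmel, Mlana, Sox10 and Kit) were higher in EGFP+ cells, and 6 basal keratinocyte markers summed to 802 to 1060.5 normalized reads there against 205245.5 to 271495.9 in tdTomato+ cells. Melanocyte markers were present in the tdTomato+ libraries too, at a sum of 4967.8 and 2142.4 without UV and 21810.9 and 41663.2 with UV. The libraries of mouse 1 stood apart in Xist, with 477 and 1103 reads against at most 4 in the other mice. Mouse 1 had no UV, so in the UV comparisons what sets it apart cannot be fully separated from UV. A normalized read is a read count divided by a size factor of its library, and a change is given as a difference on the log2(normalized reads + 1) scale ± SE from limma, which understates the change of low genes. A gene is said to have risen, fallen or been higher or lower where the Benjamini-Hochberg adjusted p over all 18070 genes tested was under 0.05. The 2 libraries of a group are 2 mice, so every SE and p rests on the spread between 2 animals, pooled over the 4 groups. limma also draws that spread toward a trend over all genes. Both populations of a mouse enter the pool as separate libraries, though they come from the same animal. In sorted bulk RNA, fewer cells of a type and less RNA per cell cannot be told apart.

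Of the 57 members, 47 reached a mean of 1 normalized read in at least 1 group and were tested, 31 ligands and 16 receptors. Ccl19, Ccl21a, Ccl21b, Ccl21c, Ccl26 and Ccl27b had 0 reads in all 8 libraries, and Ccl22 (2 reads), Cxcl15 (1), Ccr6 (3) and Ccr8 (1) had too few to test. Ccl21a, Ccl21b and Ccl21c are near-identical copies, as are Ccl27a and Ccl27b, so reads that fit several copies can be lost or misplaced and their zeros are uncertain. The library kit does not mark strand, so reads in exons shared with an overlapping gene cannot be told apart. Such overlaps reach 552 bases between Cxcl16 and Zmynd15, 133 between Cxcl10 and Art3, 1582 between Cxcl11 and the pseudogene Gm2673, and 204 between Ccl25 and Elavl1.

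**Figure D1:**
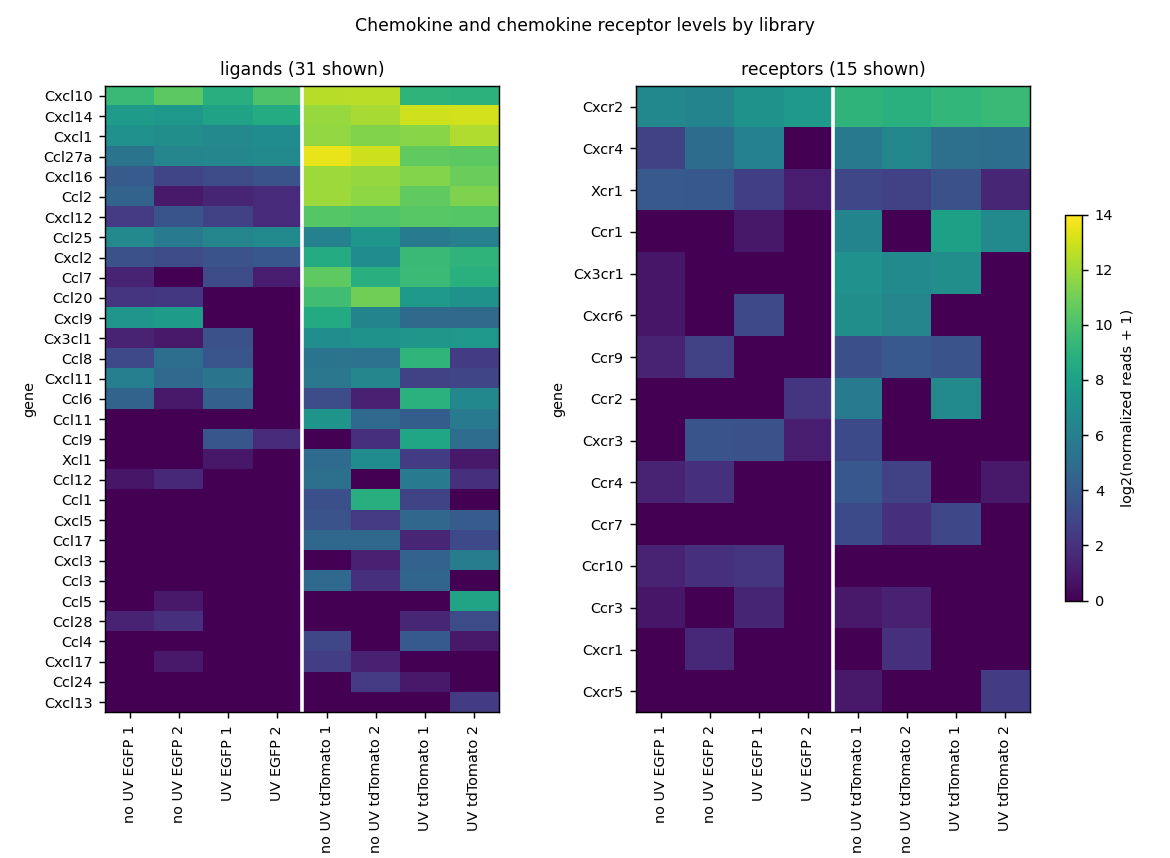
Levels of the 31 tested ligands (left) and all but 1 of the 16 tested receptors (right) in each of the 8 libraries, as log2(normalized reads + 1) on the color scale from 0 to 14, with the EGFP+ libraries left of the white line and the tdTomato+ libraries right of it. Most ligands with many reads are bright in all tdTomato+ libraries and dark in EGFP+ libraries, while Cxcl10, Cxcl14 and Cxcl1 are visible in every library and Cxcr2 is the brightest receptor row.

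Most of the chemokine ligands tested were lower in EGFP+ cells, while over all mice the share of receptors lower was near that of all genes. Over all 4 mice, 18 of 31 tested ligands (58.1%) and 3 of 16 tested receptors (18.8%) were lower in EGFP+ cells, and 0 members were higher. Among all genes tested, 19.2% were lower and 9.66% higher, so 33.5% of the genes called were higher, against 49.5% after quantile normalization and 47.8% after rescaling without the 20 most abundant genes. The median difference was -2.90 for the ligands and -1.75 for the receptors, beside -0.33 for all genes. With the 9 ligands and 3 receptors that had 0 reads in a population placed at their bounds, the medians were -4.29 and -1.75. The same comparison gave 16 ligands and 2 receptors lower without UV (12.5% of all genes lower) and 14 ligands and 3 receptors lower with UV (12.9%). The receptors were Cxcr2 and Cxcr6 without UV and included Cxcr2 and Ccr1 with UV. The count of 18 without UV dropped when either no UV EGFP+ library was left out, which leaves 1 library in that group. The share of all genes called dropped in these fits too. In 14 ligands and 1 receptor, every EGFP+ library lay below every tdTomato+ library, as it did for 18.0% of all genes. In the authors' deposited table, which compares the same populations, 23 of 35 members with an adjusted p passed 0.05 and all were lower in EGFP+ cells. Of the 21 members that passed here, 19 were among them. The share of all genes that passed in that table was not counted, so these counts do not set the members apart.

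The CXC ligands that attract neutrophils through Cxcr2 were led by Cxcl1. In EGFP+ cells Cxcl1 had 132 and 121 normalized reads without UV and 94.0 and 109.9 with UV. In tdTomato+ cells it had 3409.7 and 2579.1 without UV and 2911.1 and 5187.3 with UV. The populations did not overlap, the UV and no UV libraries of tdTomato+ cells did, and Cxcl1 was lower in EGFP+ cells by -4.89 ± 0.23 (limma adjusted p = 3.39e-06).

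Cxcl2, a close relative of Cxcl1, had 9.98 and 8.56 normalized reads in EGFP+ cells without UV and 10.9 and 12.9 with UV, against 398 and 111 in tdTomato+ cells without UV and 711 and 549 with UV. It was lower in EGFP+ cells by -4.99 ± 0.54 (adjusted p = 0.000251), and both UV tdTomato+ libraries lay above both without UV, a change of 1.56 ± 0.76 that did not pass (adjusted p = 0.432). Cxcl3 had 0 reads in all 4 EGFP+ libraries, 0 and 1.43 normalized reads in tdTomato+ cells without UV, and 20.2 and 59.3 with UV. It was at least 32.6-fold lower in EGFP+ cells, a bound set by 3 reads over the group (adjusted p = 0.00978). Its UV change in tdTomato+ cells, a ratio of 68.3 with a 95% exact interval of 11.9 to 2728.4 from 1 read without UV against 86 with UV, did not pass (adjusted p = 0.0823). Such bounds and intervals cover counting error only. Cxcl5, which also binds Cxcr2, had 0 reads in EGFP+ cells, 10.8 and 4.28 normalized reads in tdTomato+ cells without UV and 23.8 and 15.8 with UV, and was at least 21.3-fold lower in EGFP+ cells (adjusted p = 0.00288). The call of Cxcl3 was lost with edgeR (adjusted p = 0.0666) and DESeq2 (adjusted p = 0.0749).

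Cxcl1, Cxcl2, Cxcl3 and Cxcl5 lie in 1 cluster on chromosome 5 of mm10, between 90759360 (start of Cxcl5) and 90905938 (end of Cxcl2), all on the plus strand. The promoters of Cxcl1, Cxcl2 and Cxcl3 are shown because these neighbours were all lower in EGFP+ cells and hold 1 and the same stretch of letters upstream of their starts. Each line gives the 150 bases before a RefSeq transcript start in GRCm38.p6, 5′ to 3′. Capitals mark matches to the NF-kB consensus (a pair of overlapping matches, 1 on each strand) and, in Cxcl3, also to a TATA box (TATAAA).
Cxcl1, chr5:90891095-90891244, plus strand: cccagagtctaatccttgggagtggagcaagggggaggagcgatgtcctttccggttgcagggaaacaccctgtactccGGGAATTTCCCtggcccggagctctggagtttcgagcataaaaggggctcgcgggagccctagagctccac
Cxcl2, chr5:90903749-90903898, plus strand: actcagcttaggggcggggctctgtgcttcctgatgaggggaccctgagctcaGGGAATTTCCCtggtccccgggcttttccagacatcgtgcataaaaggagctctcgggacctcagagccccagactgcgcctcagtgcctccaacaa
Cxcl3, chr5:90785951-90786100, plus strand: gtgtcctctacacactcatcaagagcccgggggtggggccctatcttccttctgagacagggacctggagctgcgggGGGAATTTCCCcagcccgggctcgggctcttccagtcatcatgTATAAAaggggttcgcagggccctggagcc
The shared stretch GGGAATTTCCC runs from -71 to -61 before the start in Cxcl1, from -97 to -87 in Cxcl2 and from -73 to -63 in Cxcl3. NF-kB is the transcription factor family that tumour necrosis factor and interleukin 1 activate, and Cxcl1 is one of its best known targets. Both strands of the 250 bases before each start were searched. The consensus was found in 6 of 27 ligand genes with a promoter in the RefSeq table (Ccl20, Ccl9, Cxcl1, Cxcl10, Cxcl2 and Cxcl3) and in 2 of 14 receptor genes (Ccr3 and Ccr6), beside 3.9% of 32851 promoters of all genes. A gene can have several promoters in that table. A match describes letters and is no evidence of binding.

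Cxcl14, a chemokine made constantly by epithelium, and Cxcl16, a membrane-bound ligand of Cxcr6, were both high in tdTomato+ cells. Cxcl14 had 213 and 176 normalized reads in EGFP+ cells without UV and 268 and 390 with UV. In tdTomato+ cells it had 3620.9 and 4615.9 without UV and 8046.1 and 8418.9 with UV. Within each population both UV libraries lay above both without UV, but neither UV change passed, at 0.74 ± 0.26 in EGFP+ cells (adjusted p = 0.395) and 1.01 ± 0.26 in tdTomato+ cells (adjusted p = 0.144). Cxcl14 was lower in EGFP+ cells by -4.53 ± 0.18 (adjusted p = 1.69e-06).

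Cxcl16 had 15.0 and 6.66 normalized reads in EGFP+ cells without UV, 8.39 and 10.8 with UV, 3890.9 and 3532.6 in tdTomato+ cells without UV and 2706.8 and 1829.5 with UV. Its level was lower in EGFP+ cells by -8.06 ± 0.35 (adjusted p = 1.92e-06), and its UV change in tdTomato+ cells was -0.74 ± 0.49 (adjusted p = 0.566). Cxcl12, the stromal ligand of Cxcr4, was the steadiest of the high ligands in tdTomato+ cells, at 1287.2 and 1114.7 without UV and 1309.4 and 1279.7 with UV, against 2.16 to 11.4 in the 4 EGFP+ libraries. Cxcl12 was lower in EGFP+ cells by -7.67 ± 0.48 (adjusted p = 1.36e-05). Cx3cl1, the membrane-anchored ligand fractalkine, had 117 and 139.9 normalized reads in tdTomato+ cells without UV and 171 and 177 with UV, and 0 to 10.1 in EGFP+ cells. Cx3cl1 was lower in EGFP+ cells by -5.77 ± 0.88 (adjusted p = 0.00155).

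Among the CC ligands of monocytes and eosinophils, Ccl2, Ccl7 and Ccl11 were lower in EGFP+ cells. Ccl2, which recruits monocytes through Ccr2, had 3966.2 and 3198.6 normalized reads in tdTomato+ cells without UV and 1558.6 and 2473.1 with UV. In EGFP+ cells it had 20.8 and 0.951 without UV and 1.68 and 2.16 with UV. The difference of -9.25 ± 0.70 was the widest of all members tested (adjusted p = 3.97e-05). Ccl7, its neighbour and also a Ccr2 ligand, had 1494.5 and 455 in tdTomato+ cells without UV, 746 and 479 with UV, and 0 to 8.39 in EGFP+ cells. Ccl7 was lower in EGFP+ cells by -8.03 ± 0.74 (adjusted p = 0.000114). Ccl11, the eosinophil attractant eotaxin, lies in the same cluster and had 0 reads in EGFP+ cells, 152 and 27.1 normalized reads in tdTomato+ cells without UV, and 16.5 and 51.9 with UV. It was at least 92.9-fold lower in EGFP+ cells (adjusted p = 0.00165). None of these 3 genes passed for UV in either population.

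Ccl20, the ligand of Ccr6 that attracts Langerhans cell precursors and interleukin 17-producing T cells, had 844 and 2035.3 normalized reads in tdTomato+ cells without UV and 181 and 144 with UV. In EGFP+ cells it had 3.33 and 3.80 without UV and 0 and 0 with UV. Ccl20 was lower in EGFP+ cells by -7.76 ± 0.61 (adjusted p = 4.85e-05). The UV and no UV libraries did not overlap in either population, yet the change of -3.01 ± 0.86 in tdTomato+ cells did not pass in limma (adjusted p = 0.186), while it passed with edgeR (adjusted p = 0.00353) and DESeq2 (adjusted p = 1.31e-06). Its promoter on chromosome 1 is shown beside those of the Cxcl1 group because it too holds the NF-kB consensus, from -80 to -71, in capitals.
Ccl20, chr1:83116616-83116765, plus strand: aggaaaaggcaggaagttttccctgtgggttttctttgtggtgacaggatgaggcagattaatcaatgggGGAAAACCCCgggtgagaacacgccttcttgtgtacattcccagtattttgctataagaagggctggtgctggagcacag

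Ccl27a encodes a keratinocyte chemokine that attracts skin-homing T cells through Ccr10, and it had the most reads of all members in tdTomato+ cells without UV. In tdTomato+ cells it had 11664.8 and 7837.3 normalized reads without UV and 1547.6 and 1429.0 with UV. In EGFP+ cells it had 41.6 and 81.8 without UV and 87.2 and 100.2 with UV. Both UV libraries were low in tdTomato+ cells and both were high in EGFP+ cells, with no overlap in either. Ccl27a fell with UV in tdTomato+ cells by -2.68 ± 0.37 (adjusted p = 0.0292), and its change of 0.67 ± 0.37 in EGFP+ cells did not pass (adjusted p = 0.569). The difference between these changes, 3.35 ± 0.52, did not pass in limma (adjusted p = 0.162) and passed with edgeR (adjusted p = 0.00266) and DESeq2 (adjusted p = 1.08e-07). It was lower in EGFP+ cells over all mice by -5.65 ± 0.26 (adjusted p = 2.97e-06). The values are per gene, so the transcripts from its 3 RefSeq starts were not told apart. The promoter of the start nearest the end of the gene is shown because it alone of the 3 holds a motif of those searched, an AP-1 site (TGANTCA, read on both strands) from -77 to -71, in capitals.
Ccl27a, chr4:41770213-41770362, minus strand: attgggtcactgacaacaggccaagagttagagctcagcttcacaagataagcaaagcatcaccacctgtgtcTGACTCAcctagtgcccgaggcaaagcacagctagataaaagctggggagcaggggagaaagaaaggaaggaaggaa
AP-1 sites were found in 4 of 27 ligand genes (Ccl27a, Ccl27b, Ccl9 and Cxcl10) and 2 of 14 receptor genes, beside 6.75% of all promoters.

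**Figure D2:**
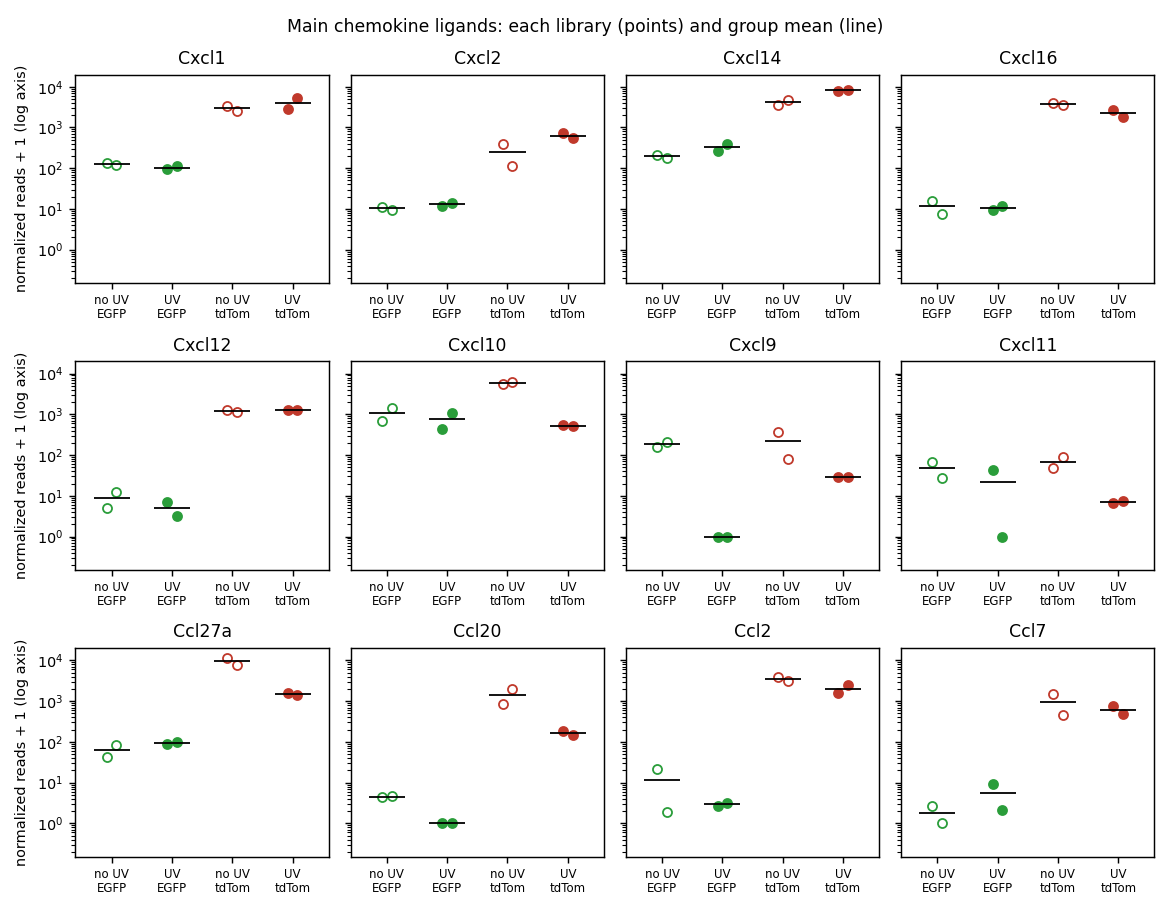
Normalized reads + 1 on a log axis for 12 ligands, with a point for each library and a line at the group mean, in EGFP+ (green) and tdTomato+ (red) cells without UV (open) and with UV (filled). The points of Ccl27a and Cxcl10 in tdTomato+ cells fall from 7837.3 or more to 1547.6 or less and from 5709.2 or more to 542 or less, while those of Cxcl12 stay between 1114.7 and 1309.4.

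Cxcl10, Cxcl9 and Cxcl11 are the ligands of Cxcr3, induced by interferon gamma to draw in T cells and NK cells, and they lie side by side on the minus strand of chromosome 5. Cxcl10 had at least 442 normalized reads in every library, the highest minimum of all members. In tdTomato+ cells it had 5709.2 and 6056.0 normalized reads without UV and 542 and 518 with UV. In EGFP+ cells it had 678 and 1436.6 without UV and 442 and 1076.7 with UV. The tdTomato+ libraries with and without UV lay far apart, and the EGFP+ libraries overlapped. Cxcl10 fell with UV in tdTomato+ cells by -3.47 ± 0.45 (adjusted p = 0.0255) and changed by -0.52 ± 0.45 in EGFP+ cells without passing (adjusted p = 0.725). The difference between these changes, 2.95 ± 0.64, did not pass in limma (adjusted p = 0.243) and passed with edgeR (adjusted p = 0.0191).

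Read as a share of the tdTomato+ library of the same mouse, Cxcl10 in EGFP+ cells stood at 11.9% and 23.7% in the mice without UV and at 81.5% and 208% in those with UV. It was lower in EGFP+ cells without UV by -2.57 ± 0.45 (adjusted p = 0.00559), which 3 of 8 fits without 1 library did not keep (largest adjusted p = 0.0925, with no UV tdTomato+ replicate 1 left out), and did not pass with UV. Over all mice the difference of -1.10 ± 0.32 passed (adjusted p = 0.0326), but 7 of 8 fits that left out 1 library did not keep it (largest adjusted p = 0.171, with no UV EGFP+ replicate 1 left out), nor did rescaling without the 20 most abundant genes (adjusted p = 0.0815) or the fit with no filter (adjusted p = 0.15).

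Cxcl9 had 161 and 203 normalized reads in EGFP+ cells without UV and 0 reads in both EGFP+ libraries with UV. The tdTomato+ cells had 370 and 79.9 without UV and 27.5 and 27.8 with UV. It was thus at least 128-fold lower with UV in EGFP+ cells, from 407 reads to 0 against a bound of 3 reads, a change that did not pass in limma (-7.51 ± 0.97, adjusted p = 0.0765) and passed with edgeR (adjusted p = 0.00507) and DESeq2 (adjusted p = 1.85e-06). In tdTomato+ cells the UV libraries lay below those without UV, at a change of -2.60 ± 0.97 (adjusted p = 0.299). With UV, Cxcl9 was lower in EGFP+ than in tdTomato+ cells, at least 19.5-fold (adjusted p = 0.0109), a call lost in 2 of 8 fits without 1 library (largest adjusted p = 0.0902, with UV tdTomato+ replicate 1 left out) and under quantile normalization (adjusted p = 0.0559). Over all mice it was lower too (-2.39 ± 0.69, adjusted p = 0.0308), but with mouse as a block that call was lost (adjusted p = 0.0541), as it was with quantile normalization (adjusted p = 0.16), with no filter (adjusted p = 0.0579) and in 4 of 8 fits without 1 library (largest adjusted p = 0.104, with no UV EGFP+ replicate 1 left out). Cxcl11 had 65.7 and 26.6 normalized reads in EGFP+ cells without UV, 41.1 and 0 with UV, 46.0 and 89.9 in tdTomato+ cells without UV, and 5.50 and 6.49 with UV. None of the 6 comparisons of Cxcl11 passed, although in tdTomato+ cells both UV libraries lay below both without UV.

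The promoters of Cxcl10 and Cxcl9 are shown to set the gene that kept its reads in EGFP+ cells with UV beside the neighbour that had 0. They are the 250 bases before each RefSeq start in GRCm38.p6. In Cxcl10, capitals mark, in order, an ISRE core (GAAA, any 2 bases and GAAA again), the NF-kB consensus, the NF-kB consensus again and an AP-1 site. In Cxcl9 they mark the letters TATAAA from -195 to -190.
Cxcl10, chr5:92348890-92349139, minus strand: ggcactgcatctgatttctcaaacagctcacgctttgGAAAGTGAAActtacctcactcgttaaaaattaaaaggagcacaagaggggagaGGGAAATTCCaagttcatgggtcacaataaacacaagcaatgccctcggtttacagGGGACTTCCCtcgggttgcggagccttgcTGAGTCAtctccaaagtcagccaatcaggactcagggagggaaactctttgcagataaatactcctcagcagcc
Cxcl9, chr5:92328080-92328329, minus strand: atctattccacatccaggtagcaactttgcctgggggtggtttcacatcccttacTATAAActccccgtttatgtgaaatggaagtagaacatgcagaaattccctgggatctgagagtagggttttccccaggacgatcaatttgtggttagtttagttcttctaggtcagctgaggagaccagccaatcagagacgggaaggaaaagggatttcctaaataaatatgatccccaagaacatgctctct
In Cxcl10 the ISRE core starts at -213, the NF-kB matches at -159 and -103, and the AP-1 site at -74. Cxcl10 was the only member whose window held the ISRE core together with the NF-kB consensus. The ISRE core, the element read by interferon-activated factors, was found in 3 of 27 ligand genes (Ccl19, Cxcl10 and Cxcl14), 0 of 14 receptor genes and 2.98% of all promoters. The window of Cxcl9 held none of the ISRE, NF-kB, AP-1 or GAS (TTCNNNGAA) letters searched, which speaks only of these letters in this window. The GAS core was in 2 ligand genes (Ccl17 and Cxcl14) and 1 receptor gene (Ccr6), beside 7.02% of all promoters.

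Some markers of antigen-presenting cells, like Cxcl9, had fewer reads with UV in the EGFP+ libraries, but 0 of the 8 checked passed the test. Of these 8, Csf1r, Itgam and Adgre1 were at most 1.68 in every EGFP+ library. H2-Aa, a class II histocompatibility chain, had 299 and 300.4 normalized reads in EGFP+ cells without UV and 6.71 and 1.08 with UV, and Cd74, its invariant chain, had 304, 91.3, 40.3 and 2.16. The 8 macrophage and dendritic cell markers summed to 719 and 512 without UV and 105 and 8.62 with UV. The defining leukocyte marker Ptprc was at 0 in 3 of these 4 libraries and at 4.75 in the other, and Cd207 was at most 1.08. The part of such cells in the Cxcl9 values was not tested.

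Ccl17, Xcl1 and Ccl1 had few or no reads in EGFP+ cells. Ccl17, a Ccr4 ligand of dendritic cells, had 24.5 and 24.3 normalized reads in tdTomato+ cells without UV, 1.83 and 7.42 with UV and 0 in EGFP+ cells, where it was at least 19.5-fold lower (adjusted p = 0.00402). Xcl1, made by NK cells and activated T cells, had 28.4 and 111 in tdTomato+ cells without UV, 4.58 and 0.927 with UV, and 0.839 in a single EGFP+ library. It was lower in EGFP+ cells, a ratio of 127 (95% exact interval 22.3 to 5058.8) from 1 read against 113 (adjusted p = 0.00834). Ccl1, a Ccr8 ligand, had 438 normalized reads in no UV tdTomato+ replicate 2, 0 to 9.78 in the other tdTomato+ libraries and 0 in EGFP+ cells. Its lower level in EGFP+ cells, at least 121-fold (adjusted p = 0.0467), was lost in 7 of 8 fits without 1 library, up to an adjusted p of 0.207 without UV tdTomato+ replicate 1.

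Inflammatory CC ligands from the other cluster on chromosome 11 (Ccl5, Ccl9, Ccl6, Ccl3 and Ccl4) did not pass in limma in any comparison. Ccl5, a T cell and monocyte attractant, had 289 normalized reads in UV tdTomato+ replicate 2, 0.951 in 1 EGFP+ library and 0 in the other 6. Ccl6 had 497 and 91.8 in tdTomato+ cells with UV, 8.80 and 1.43 without UV, and 0 to 20.8 in EGFP+ cells. Ccl9 had 301 and 31.5 in tdTomato+ cells with UV, 0 and 2.85 without UV, and 0 to 12.6 in EGFP+ cells. For Ccl6 and Ccl9 the UV tdTomato+ libraries were high in both mice, and the changes of 5.46 ± 1.83 (adjusted p = 0.249) and 5.66 ± 1.41 (adjusted p = 0.14) did not pass in limma but did with DESeq2 (adjusted p = 0.0135 and 0.00632).

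Ccl8, a monocyte attractant, had 579 normalized reads in UV tdTomato+ replicate 1 and 4.64 in replicate 2, 40.1 and 35.7 without UV, and 0 to 32.3 in EGFP+ cells. Ccl12 had 35.2 and 0 in tdTomato+ cells without UV, 54.1 and 2.78 with UV, and at most 1.90 in EGFP+ cells. For both, the 2 UV tdTomato+ libraries differed by more than the group means of tdTomato+ cells did. Ccl25, the thymic and gut ligand of Ccr9, was the ligand most alike in the populations, at 54.2 to 105 normalized reads in EGFP+ cells and 53.1 to 161 in tdTomato+ cells (0.01 ± 0.47, adjusted p = 0.985). The remaining tested ligands (Ccl3, Ccl4, Ccl24, Ccl28, Cxcl13 and Cxcl17) stayed at or under 26.4 normalized reads in every library, and none passed in any comparison.

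**Figure D3:**
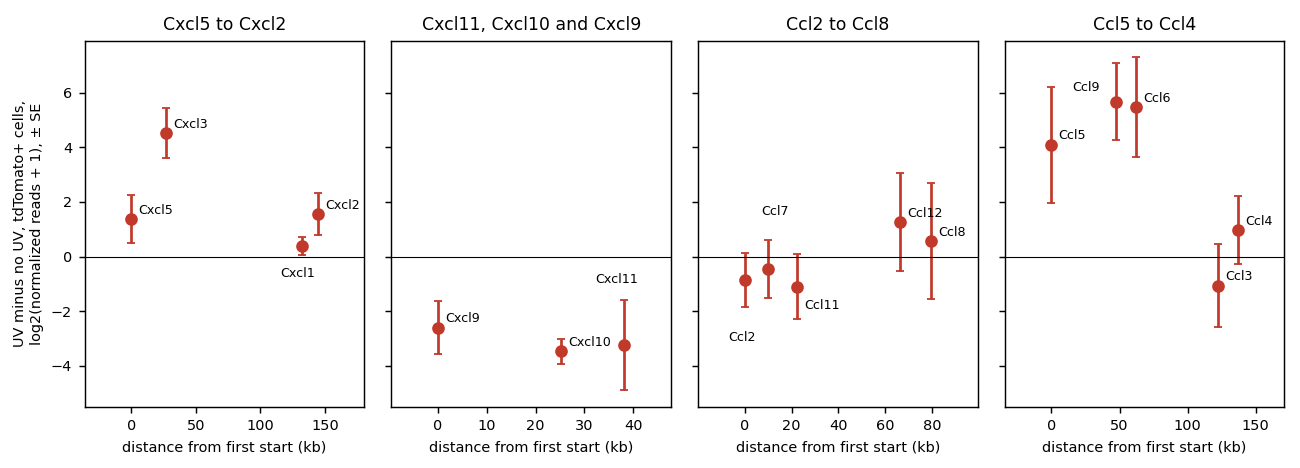
Change with UV in tdTomato+ cells (log2 scale, ± SE) of ligands in 4 gene clusters, against the distance of each gene's lowest coordinate from that of the first gene shown, in kb. The Cxcl9 to Cxcl11 genes all lie below 0 and the Cxcl5 to Cxcl2 genes all above 0, and of the genes drawn only Cxcl10 passed the test.

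Levels can be ordered across genes only per length, here as normalized reads per kb of merged exons (GENCODE vM21), averaged over the 2 libraries. The merged exons of Cxcl1, Cxcl2, Cxcl3 and Cxcl10 form 1 stretch over the whole gene. Any intron that some transcripts remove thus counts in their length and lowers their values, so their places in the order are uncertain. In tdTomato+ cells without UV the order of ligands was Ccl27a (4102.3), Ccl2 (3148.0), Cxcl10 (2612.2), Cxcl14 (2254.2) and Cxcl1 (1597.0). The library ranges of Ccl27a and Ccl2 overlapped, and those of Ccl2, Cxcl10, Cxcl14 and Cxcl1 did not. With UV the order became Cxcl14 (4506.0), Cxcl1 (2159.6), Ccl2 (1771.4), Ccl7 (765) and Cxcl16 (751), where Cxcl1 and Ccl2 overlapped, as did Ccl7 and Cxcl16. In EGFP+ cells Cxcl10 led without UV (469) and with UV (337), followed by Cxcl14 (106 and 180.0). With UV the ranges of these genes overlapped, and without UV they did not. Next in both came Cxcl1 (67.5 and 54.4), and without UV its range overlapped that of Cxcl9 (60.3), the fourth. Cxcr2 led the member receptors in all 4 groups, from 28.2 per kb in EGFP+ cells without UV to 219.7 in tdTomato+ cells with UV.

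The share of a tdTomato+ level that was found in the EGFP+ library of the same mouse differed between members. Krt14, a keratin of basal keratinocytes, stood at 0.166% to 0.269% over the 4 mice, and Dcn of fibroblasts at 0.0522% to 0.132%. Cxcl16 stood at 0.188% to 0.589%, Ccl2 at 0.0297% to 0.524% and Ccl20 at 0 to 0.394%. Cxcl1 (2.12% to 4.68%), Cxcl14 (3.33% to 5.88%) and Cxcr2 (16.7% to 25.3%) were above the share of Krt14 in all 4 mice, as was Ccl27a (0.357% and 1.04% without UV, 5.64% and 7.01% with UV). So were Cxcl2 (1.53% to 7.69%), Cxcl10 (11.9% to 208%) and Ccl25 (33.6% to 152.4%), and also Cxcl16, whose shares lay closer to those of Krt14. That standing depends on the marker set beside them. Krt5 stood at 0.154% to 0.241%, but Cd74 at 0.409% to 6.9%, a range that holds those of Cxcl1 and Cxcl14, and Ptprc at 0 to 15.9%. The basal keratinocyte marker Itga6 had 291.1 to 440.2 normalized reads in EGFP+ cells and 2546.0 to 3558.9 in tdTomato+ cells. Whether RNA carried over from other cells gave these EGFP+ reads was not tested.

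Receptors matched by the symbol rule were few and mostly low. Cxcr2, the receptor of the Cxcl1 group on neutrophils, was the exception. It had 92.3 and 79.9 normalized reads in EGFP+ cells without UV and 142 and 183 with UV. The tdTomato+ cells had 547 and 478 without UV and 616 and 723 with UV. The populations did not overlap, and in each both UV libraries lay above both without UV. Cxcr2 was lower in EGFP+ cells by -2.30 ± 0.24 (adjusted p = 0.000225), and the UV changes of 0.90 ± 0.34 in EGFP+ cells (adjusted p = 0.433) and 0.38 ± 0.34 in tdTomato+ cells (adjusted p = 0.659) did not pass.

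Cxcr6, the receptor of Cxcl16 on resident T cells, had 120.3 and 81.4 normalized reads in tdTomato+ cells without UV and 0 reads in both libraries with UV. In EGFP+ cells it had 0.832 and 0 without UV and 7.55 and 0 with UV. It was lower in EGFP+ cells without UV, a ratio of 235 (95% exact interval 41.7 to 9352.1) from 1 read against 180 (adjusted p = 0.00833), a call lost in 4 of 8 fits without 1 library (largest adjusted p = 0.0892, with no UV EGFP+ replicate 2 left out) and with a pseudocount of 0.1 (adjusted p = 0.052). In tdTomato+ cells it was at least 75.6-fold lower with UV, from 180 reads to 0, a change that did not pass in limma (adjusted p = 0.0614) and passed with DESeq2 (adjusted p = 0.00294) and when only the tdTomato+ libraries were fitted (adjusted p = 0.0455). Of the T and NK cell markers, Cd3g had 373 and 495 normalized reads without UV and 62.3 and 1.85 with UV, Cd3e 119 and 95.6 against 19.2 and 0, and the 6 markers summed to 899 and 943 without UV and 216 and 118 with UV. None of these markers passed the test, Ncr1 was at 0 in every library, and the part of T cells in the Cxcr6 values was not tested.

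Receptors of monocytes and macrophages had 0 reads in some tdTomato+ libraries and many in others. Cx3cr1, the receptor of Cx3cl1, had 137 and 99.9 normalized reads in tdTomato+ cells without UV and 119 and 0 with UV. Ccr1 had 78.2 and 0 without UV and 245 and 98.3 with UV, and Ccr2 had 52.8 and 0 without UV and 104 and 0 with UV. In EGFP+ cells these 3 receptors stood at 0 to 3.23. With 1 read each in EGFP+ cells over all mice, Ccr1 was lower by a ratio of 509 (95% exact interval 90.9 to 20148.0, adjusted p = 0.0212) and Cx3cr1 by a ratio of 382 (68.1 to 15133.1, adjusted p = 0.0273). With UV, Ccr1 was lower in EGFP+ cells (adjusted p = 0.0364), a call lost in 6 of 8 fits without 1 library, up to an adjusted p of 0.249 when UV tdTomato+ replicate 1 was left out. Over all mice Ccr1 and Cx3cr1 lost their calls in 5 of 8 fits without 1 library each, up to an adjusted p of 0.122 (without no UV EGFP+ replicate 1) and 0.155 (without no UV tdTomato+ replicate 1). Cd207, the marker of Langerhans cells, fell with UV in tdTomato+ cells (1237.3 and 271 against 0 and 0 normalized reads, adjusted p = 0.0211), Lyz2 of macrophages had 1910.2 and 0 without UV and 4006.1 and 774 with UV, and the 8 macrophage and dendritic cell markers summed to 11582.7 and 2269.4 without UV and 5836.0 and 1766.5 with UV. The part of these cells in the receptor values was not tested. The call of Cd207 was lost in some fits that left out 1 library.

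Cxcr4, the receptor of Cxcl12, had 5.82 and 29.5 normalized reads in EGFP+ cells without UV, 69.6 and 0 with UV, 49.9 and 85.6 in tdTomato+ cells without UV, and 34.8 and 32.5 with UV, and passed in none of the 6 comparisons. Ccr10, the receptor of Ccl27a, had 9 reads in EGFP+ cells and 0 in tdTomato+ cells, and Cxcr3, the receptor of the Cxcl10 group, had 33 reads in all. The other tested receptors (Ccr3, Ccr4, Ccr7, Ccr9, Cxcr1, Cxcr5 and Xcr1) had 4 to 62 reads over the 8 libraries and did not pass in any comparison.

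**Figure D4:**
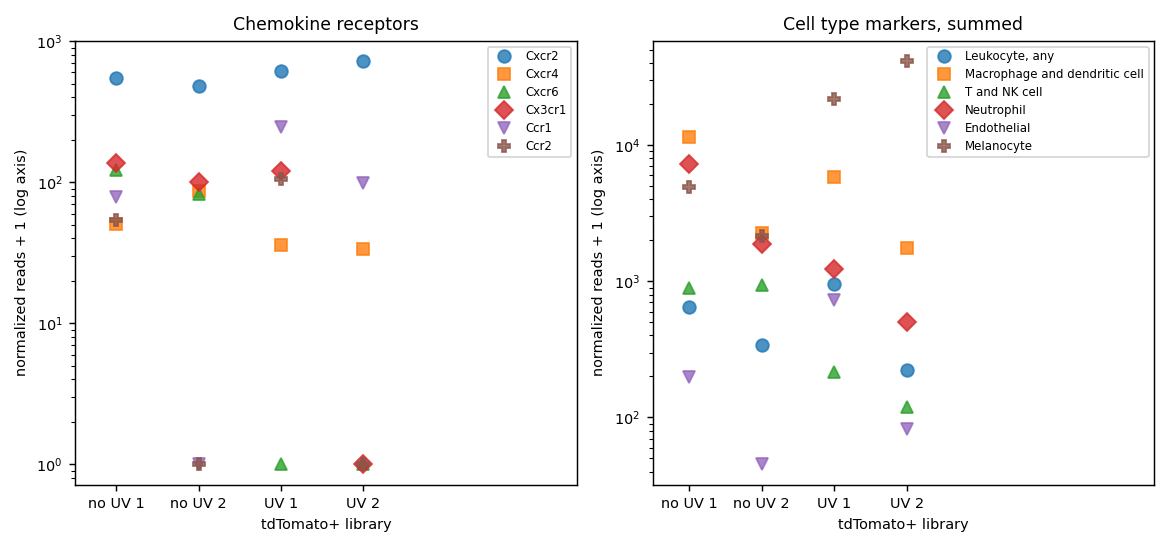
Normalized reads + 1 on a log axis in the 4 tdTomato+ libraries for 6 receptors (left) and for the summed markers of 6 cell types (right). With UV, Cxcr6 is at 0 reads and the T and NK cell markers at sums of 216 and 118, neither a change that passed the test, while the melanocyte markers sum to 21810.9 and 41663.2.

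UV changed few of these genes at the threshold. In tdTomato+ cells 2 of 47 members fell, Cxcl10 and Ccl27a, and 0 rose, beside 0.21% of all genes that fell and 0.349% that rose. At an unadjusted p under 0.05 there were 16 members, beside 13.4% of all genes. In 8 ligands and 3 receptors both UV libraries lay above both without UV (21.6% of all genes), and in 12 ligands and 4 receptors both lay below (24.5%). The first set included Cxcl2, Cxcl3, Cxcl5 and Cxcl14, and the second Cxcl9, Cxcl10, Cxcl11, Ccl20 and Ccl27a. The median change was -0.46 for ligands and -0.96 for receptors, beside -0.09 for all genes, and -0.46 and -0.95 with genes at 0 reads placed at their bounds. The calls of Cxcl10 and Ccl27a were lost in 7 of 8 fits that left out 1 library. Each of those fits leaves 1 library in a group and has fewer residual degrees of freedom. In several of them all other calls of this comparison were lost too, such as those of Cd207, Ackr2 and the melanocyte markers. That did not hold in all of them. Without either no UV tdTomato+ library other genes were still called, while Cxcl10 and Ccl27a were not. The changes themselves stayed within -3.51 to -3.43 for Cxcl10 and -2.97 to -2.40 for Ccl27a.

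Melanocyte markers rose with UV in tdTomato+ cells, 5 of 6 of them. Of 6 neutrophil markers 1 rose, Camp (0 and 0 against 26.6 and 18.5 normalized reads), while the list summed to 7332.8 and 1874.0 without UV and 1227.9 and 503.5 with UV, with S100a8 and Il1r2 (adjusted p = 0.474 and 0.157) among the genes with most reads. Of 5 mast cell markers 1 rose, Cma1 (0 and 0 against 38.5 and 31.5), and Tpsb2, Mcpt4 and Fcer1a were at 0 in every library. The basal keratinocyte sum was 208278.0 and 271495.9 without UV and 215721.8 and 205245.5 with UV, and 0 of its 6 genes passed. How much of the Cxcl10 and Ccl27a changes follows the makeup of the fraction was not tested.

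In EGFP+ cells 0 of 47 members passed for UV with limma, beside 0.0166% of all genes. At an unadjusted p under 0.05 there were 4 (Cxcl9, Cxcl14, Cxcr2 and Ccl20), beside 10.4% of all genes, a share near theirs. edgeR and DESeq2 each called 1, Cxcl9, beside 0.664% and 1.96% of all genes. In 4 ligands and 1 receptor both UV libraries lay above both without UV (12.7% of all genes), and in 5 ligands and 3 receptors both lay below (20.7%). Without UV EGFP+ replicate 1, limma called 3 of 47 members, Cxcl9 (adjusted p = 0.00455), Cxcl11 (adjusted p = 0.0235) and Cxcl14 (adjusted p = 0.0471), beside 8.91% of all genes, so this count does not set the members apart. For the difference between the UV changes of the populations 0 members passed, beside 0.00553% of all genes. There were 9 at an unadjusted p under 0.05 (10.0% of all genes), and edgeR called 2 (Ccl27a and Cxcl10, beside 0.415% of all genes) and DESeq2 4 (1.58%).

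**Figure D5:**
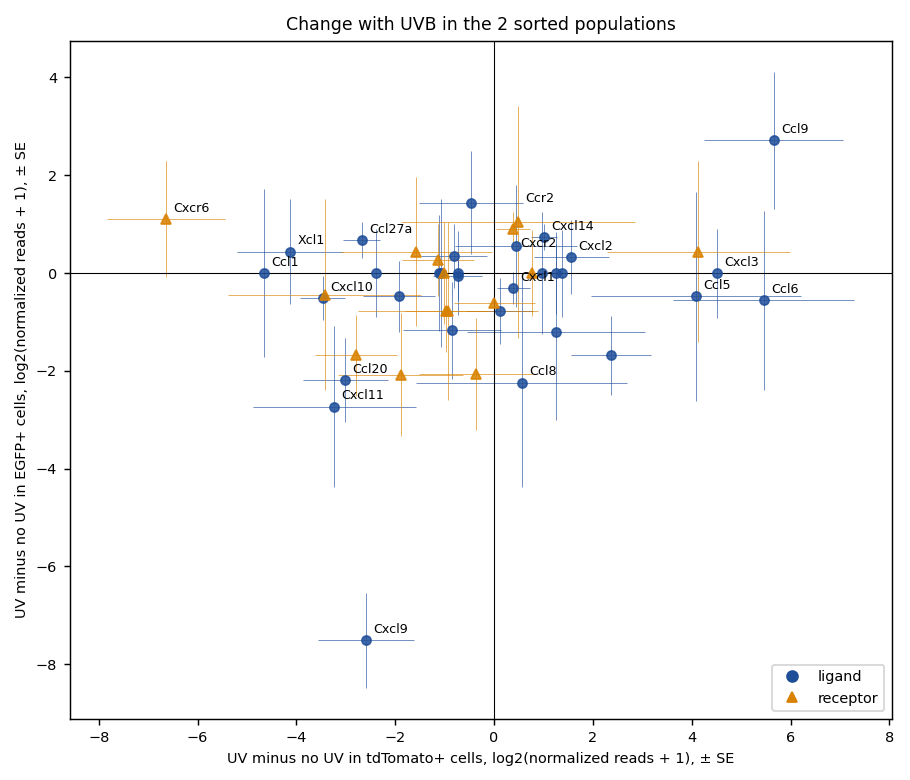
Change with UV of all but 1 of the 47 tested genes in tdTomato+ cells (horizontal) and in EGFP+ cells (vertical), both as differences of log2(normalized reads + 1) ± SE, with ligands as circles and receptors as triangles. Cxcl10 (-3.47) and Ccl27a (-2.68) lie left of 0 with short error bars, and Cxcl9 lies lowest at -7.51 in EGFP+ cells.

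Genes that scavenge chemokines or share their pathway were read from lists. Their counts in EGFP+ against tdTomato+ cells over all mice stand beside 19.2% of all genes lower and 9.66% higher. Of 16 tested chemokine genes outside the rule, 7 were lower and 1 higher in EGFP+ cells. Ackr4, an atypical receptor that removes Ccl19, Ccl21 and Ccl25, was lower (-7.58 ± 0.68, adjusted p = 9.75e-05), at 764 and 647 normalized reads in tdTomato+ cells without UV, 339 and 284 with UV, and at most 4.16 in EGFP+ cells. Dpp4, a protease that trims chemokines (-5.61 ± 0.77, adjusted p = 0.000915), and Ccrl2 (-4.43 ± 0.85, adjusted p = 0.00493) were lower, and Cmtm3 (2.23 ± 0.20, adjusted p = 0.000106) was the higher member. Ackr2, the scavenger of inflammatory CC ligands, was the only gene of the 4 pathway lists that passed for UV in tdTomato+ cells. It had 61.6 and 31.4 normalized reads there without UV and 0 reads with UV, and 0 reads in EGFP+ cells (adjusted p = 0.0344). This call too was lost in some fits that left out 1 library. The atypical receptor Ackr3 had 464.9 and 328.0 normalized reads in EGFP+ cells without UV and 872.5 and 718.9 with UV. In tdTomato+ cells it had 863.7 and 383.9 without UV and 323.5 and 270.8 with UV. Its UV changes of 1.02 ± 0.41 in EGFP+ cells (limma adjusted p = 0.452) and -0.96 ± 0.41 in tdTomato+ cells (limma adjusted p = 0.365) did not pass. Nor did the difference between them (limma adjusted p = 0.356).

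A list of inducers of chemokine genes, which also holds inhibitors and targets of NF-kB, was mostly lower in EGFP+ cells, 17 of 31 tested against 3 higher. The count thus does not speak of inducers alone. Tnfaip3, a target and inhibitor of NF-kB, had 2065.8 and 2747.6 normalized reads in tdTomato+ cells without UV, 914 and 814 with UV, and 1.08 to 43.7 in EGFP+ cells (-7.20 ± 0.42, adjusted p = 9.44e-06). Nfkbia, the inhibitor of NF-kB (-2.26 ± 0.14, adjusted p = 1.36e-05), Icam1, an adhesion molecule (-5.63 ± 0.49, adjusted p = 8.44e-05), and the cytokine Tnf (125 to 279 normalized reads in tdTomato+ cells and at most 0.839 in EGFP+ cells, adjusted p = 0.000221) were lower too. The interferon list had 6 genes higher and 3 lower of 18 tested. Ifit3 (4.62 ± 0.70, adjusted p = 0.00148), Ifnar2, a subunit of the type I interferon receptor (1.44 ± 0.17, adjusted p = 0.000435), and Irf9 (1.27 ± 0.20, adjusted p = 0.00206) were higher in EGFP+ cells, and Irf1 was lower (-2.07 ± 0.19, adjusted p = 0.000112). Of 34 tested genes of receptor signalling 4 were higher and 9 lower, shares near those of all genes. Rgs1 (119.6 to 1277.4 normalized reads in tdTomato+ cells and at most 1.66 in EGFP+ cells, adjusted p = 0.000111) and Rgs2 (-5.65 ± 0.76, adjusted p = 0.00079), which shut off G protein signalling, and the inhibitory subunit Gnai1 (-6.14 ± 0.64, adjusted p = 0.000209) were lower, and the subunit Gng2 (3.12 ± 0.36, adjusted p = 0.000363) was higher. Another inhibitory subunit, Gnai2, had more reads than Gnai1 in every library and went the other way. It had 4804.8 to 6071.6 normalized reads in EGFP+ cells and 2631.9 to 4013.4 in tdTomato+ cells. Without UV, Gnai2 was higher in EGFP+ cells (0.98 ± 0.18, limma adjusted p = 0.00734).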

How the data were processed

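The signal values are normalized reads, deposited by the authors with 1 column per library, and per the file headers they sit beside log2 fold changes with errors, a score, and p-value and adjusted p-value columns from the authors' own EGFP+ against tdTomato+ comparison. Of those log2, score and p-value columns deposited by the authors, only the sign of the fold change and the adjusted p were used. Per the labels' protocols, libraries were made with the TruSeq RNA v2 kit after poly(A) selection. Per the submitters' processing notes, the tools were TopHat2 2.0.12, FastQC, DESeq2 1.14.1 and Cufflinks 2.2.1, with the mm10 build, and the read counter is not given in the sources used here. Dividing each column by the value of 1 read, fitted to its low values, gave whole reads for 195368 of 195368 values within 0.01 of a read (100%), with size factors of 0.701 to 1.202.

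limma 3.58.1 (R 4.3.3) was run on log2(value + 1) of all 8 libraries with a mean per group, a variance trend and 4 residual degrees of freedom (median 8.4 after moderation). A gene was tested if any group mean reached 1 normalized read (18070 genes), with p adjusted by Benjamini-Hochberg and a threshold of 0.05. Alternatives were edgeR 4.0.16 and DESeq2 1.42.0 on the recovered reads, a pseudocount of 0.1, quantile normalization, a rescaling that ignores the 20 most abundant genes, a stricter filter (5 or more in 2 libraries) or none, a fit of just the libraries compared, a block, and each library left out. The fits were tested on simulated data. A bound uses 3 reads over a group, and ratios have 95% exact intervals.

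The main fit had no term for mouse. Both populations of a mouse come from the same animal, so mouse was the block in an alternative fit of comparisons between them. The correlation across genes of their deviations from the group means was 0.0873 in mice 1 and 2, and 0.0562 in mice 3 and 4. UV and no UV libraries share only a replicate number (0.0549 in EGFP+ and 0.0759 in tdTomato+ cells).

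The members, the pathway and marker lists and the tests were chosen with earlier results of these data known. Members are given by library where they passed in any comparison or had a group mean of at least 20, and pathway genes up to 4 per list by smallest p. The plan was to print promoters of the members with the largest changes, but those printed were chosen after values and matches were seen, from 41 members in the RefSeq promoter table (GRCm38.p6). Positions and exon lengths of 56 members come from GENCODE vM21. The values of 1 receptor are not reported here, though the counts of members include it.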

Additional observations from a re-analysis of the deposited data

How the results depend on the processing

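Of 58 calls of single members over the 6 comparisons, 34 were kept in all 8 fits that each left out 1 library, 32 were kept under all alternatives run, and 0 changed sign. The number of members called ran, over the fits without 1 library, from 16 to 22 for EGFP+ against tdTomato+ cells over all mice (21 with all libraries), from 10 to 18 without UV (18), from 12 to 17 with UV (17), from 0 to 3 for UV in EGFP+ cells (0), from 0 to 3 for UV in tdTomato+ cells (2) and from 0 to 2 for the difference between the UV changes (0). The share of all genes called also shifted in those fits, in each comparison. For UV in tdTomato+ cells the count was 0 with a pseudocount of 0.1 (0.16% of all genes called) and with no filter (0.803%). The limma adjusted p of Cxcl10 and Ccl27a was 0.0582 and 0.0623 in the first and 0.113 and 0.0892 in the second. The count was 4 with only the libraries compared (1.05% of all genes), 3 with edgeR (1.33%) and 8 with DESeq2 (3.41%). The main fit called 0.559% of all genes. edgeR and DESeq2 each called 1 member for UV in EGFP+ cells (beside 0.664% and 1.96% of all genes), and 2 and 4 for the difference (0.415% and 1.58%). The cause of these shifts was not tested.

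With mouse as a replicate block the populations differed in 20 members over all mice (28.9% of all genes called). They differed in 18 without UV (18.2%) and in 18 with UV (17.7%), and 0 passed for the difference (0.00553%). The pairing ended the calls of Cxcl9 over all mice (adjusted p = 0.0541) and of Cxcl5 without UV (adjusted p = 0.0951). With replicate number as a block the counts for UV were 0 in EGFP+ cells (0.0111% of all genes) and 2 in tdTomato+ cells (0.387%).

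Quantile normalization moved the median of all genes by 0.352 log2 units between the populations over all mice, and rescaling without the 20 most abundant genes by 0.208. All members called between the populations were lower in EGFP+ cells under both. At 11186363 to 16711981 reads per library, changes of members with 0 to 3 reads in a group are bounds or wide intervals, and 10 of 57 members were too low to test.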
